A study of Ovis aries with 32 samples.

Results

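The 6 genes of the ubiquitin and SUMO systems examined were TCEB2, RCHY1, ANAPC13, KLHL9, BIRC6 and UBA2, each by 1 of the 15008 probes of a 1-colour Agilent sheep array. The study grouped them under ubiquitin mediated proteolysis among the genes it listed as higher in the left ventricular free wall (LV) of CORT lambs, and an earlier tracing of that list on these data tied each gene to 1 probe. The genes were therefore chosen by their LV difference between CORT and Control lambs, which is given below as a description with no test. The scanner output names no gene for any of the 6 probes and gives each an expressed sequence tag with no mapped position, so the gene names rest on that tracing.

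RNA was measured in the LV and the interventricular septum (IVS) of 14-day-old lambs, on 32 arrays with 1 sample each. CORT lambs, 8 in each tissue, were born to ewes given cortisol at 0.5 mg/kg/day in a nightly infusion from day 115 of gestation until delivery, and Control lambs, 8 in each tissue, to untreated ewes. Treatment was given to the ewe and ended at birth, so the lambs were measured 14 days after the exposure. The methods describe 1 set of twins in each group, so not every lamb had a dam of its own, and p-values measure the spread between the lambs. The tissue was taken whole, in which fewer cells of a type and less RNA per cell cannot be told apart. The cardiomyocyte markers that the files name, myoglobin (MB) and tropomyosin 1 (TPM1), had mean log2 intensities between 17.96 and 18.25 in both tissues, and other cardiac markers were not named there.

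The ubiquitin system tags proteins for destruction by the proteasome. An activating enzyme (E1) loads ubiquitin, a conjugating enzyme (E2) carries it, and a ligase (E3) picks the substrate. SUMO is a related modifier with an E1, E2 and ligases of its own, and it changes the location, partners or activity of its targets more often than it leads to their destruction. In heart muscle both systems take part in the turnover of contractile proteins and in the response to stress. The 6 genes span these steps and are not all ligases. TCEB2, now called ELOB, encodes elongin B, an adaptor of cullin-RING ligases such as the one that holds VHL. KLHL9 encodes a substrate adaptor of CUL3 ligases, and ANAPC13 a subunit of the anaphase-promoting complex, the ligase that drives exit from mitosis. RCHY1, also called PIRH2, encodes a RING ligase known for targeting p53. BIRC6 encodes a very large inhibitor of apoptosis with ubiquitin-conjugating activity. UBA2 encodes the catalytic subunit of the SUMO E1 and is therefore an activating enzyme and not a ligase.

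Since the files pair no gene name with these probes, the start of each probe is shown to fix its identity, as the first 30 of its 60 bases, 5′ to 3′, copied from the scanner output and in lower case throughout because no base within them was singled out.
A_70_P059576 (TCEB2): aaagatttgggcgtccatctggttgctgcc
A_70_P054036 (RCHY1): ggctggaagatataaaatttcattagatca
A_70_P054006 (ANAPC13): cactgactactgggattcctaaaattcccc
A_70_P040756 (KLHL9): tgagcctcactgcccttttcattttaatga
A_70_P060741 (BIRC6): acacccttaaggagatccagtttaattcaa
A_70_P005366 (UBA2): ctgcctggtatgtctgtgtaagaagccagt
The TCEB2 probe held 33 G or C bases in its full length, at the 95th percentile of all probes (33). The other 5 held between 21 and 23, against a median of 26 over the array and a 5th percentile of 21. Each probe had 1 spot per array, and none shared a run of 20 bases with another probe of the array.

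All 6 probes were measured clearly on every array. They were well above background on 32 of 32 arrays, with 0 saturated and 0 outlier spots, and all 6 passed the brightness limit in both tissues, as did 11518 probes in the LV and 11685 in the IVS. The raw spot intensity of BIRC6 was between 220 and 741 against a local background of at most 54.0. That of UBA2 was between 2126 and 7071.

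Brightness differed between arrays, most within the IVS Control group, and moves with results below. The median spot intensity was between 139 and 217 on the LV arrays. It was between 131 and 332 in the IVS, where 3 Control arrays (Control 1 and 2 on slide 3, Control 3 on slide 4) stood apart at 249 to 332, above the 8 CORT arrays at 177 to 217. Slides 1 and 2 held the LV arrays, 4 of each group on each slide, and slides 3, 4 and 5 the IVS arrays. No arrays were identical, and the highest correlation between arrays was 0.994.

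**Figure D1:**
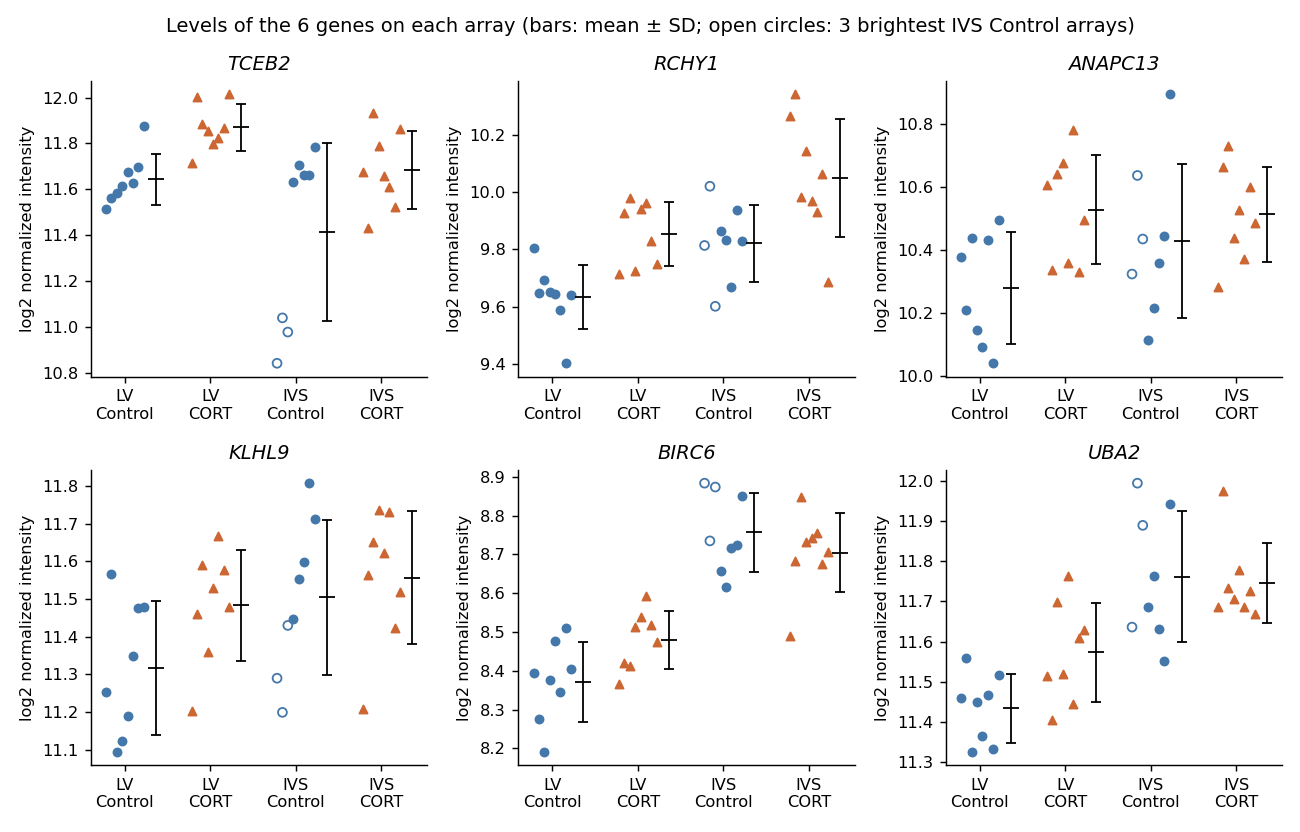
Levels of the 6 genes (log2 normalized intensity, vertical axis; axes do not start at 0) on each array of the 4 groups, with the mean and SD of each group of 8 beside the points. Open circles are the 3 IVS Control arrays with the highest median spot intensity; TCEB2 lay between 10.84 and 11.04 on them and between 11.63 and 11.78 on the other 5.

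In the LV, all 6 genes had higher mean levels in CORT lambs, as their selection required. The log2 differences ran from 0.11 (BIRC6) to 0.25 (ANAPC13), which is 7.76 to 18.8% of normalized intensity. Their median was 0.19, beside 0.0015 over the 11518 probes tested in the LV, of which 1.66% were higher and 2.2% lower at an unadjusted p under 0.05 in limma's test, and 0 at an adjusted one. Nothing is read from these counts, since the same contrast chose the genes.

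Among the parts of cullin-RING ligases, TCEB2 in the LV ranged from 11.52 to 11.88 (median 11.62) in Control lambs and from 11.71 to 12.01 (median 11.86) in CORT lambs. All 8 CORT lambs lay above the Control mean, 7 of 8 Control lambs lay below the lowest CORT lamb, and the groups overlapped through 1 Control lamb. The means were 11.64 ± 0.11 (SD, n = 8) and 11.87 ± 0.10 (SD, n = 8), a log2 difference of 0.23 (SE 0.058). KLHL9 ranged from 11.09 to 11.57 (median 11.30) in Control and from 11.20 to 11.67 (median 11.50) in CORT lambs. Its groups overlapped widely, with 3 CORT lambs above the highest Control lamb, and its log2 difference was 0.17 (SE 0.080).

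Among the ligases and the subunit of the anaphase-promoting complex, RCHY1 ranged from 9.40 to 9.81 (median 9.65) in Control and from 9.72 to 9.98 (median 9.88) in CORT lambs. In all, 7 Control lambs lay below the lowest CORT lamb and 5 CORT lambs above the highest Control lamb, for a log2 difference of 0.22 (SE 0.060). ANAPC13 ranged from 10.04 to 10.50 (median 10.30) in Control and from 10.33 to 10.78 (median 10.55) in CORT lambs. It had the largest mean difference of the 6 in the LV, 0.25, and also the largest error (SE 0.085). BIRC6 ranged from 8.19 to 8.51 (median 8.38) in Control and from 8.37 to 8.59 (median 8.49) in CORT lambs, with a log2 difference of 0.11 (SE 0.052).

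UBA2, the SUMO-activating subunit, ranged from 11.33 to 11.56 (median 11.46) in Control and from 11.40 to 11.76 (median 11.56) in CORT lambs. There, 4 CORT lambs exceeded every Control lamb, and the log2 difference was 0.14 (SE 0.058). On each LV slide alone all 6 differences were positive, which is no support for them, since these arrays chose the genes. The slides differed most for RCHY1, at 0.14 on slide 1 and 0.30 on slide 2, and for TCEB2, at 0.29 and 0.16. Markers of other cells were read beside these values. Of 8 fibroblast probes in the LV, 4 had a higher and 4 a lower mean in CORT lambs, and 2 were lower at an unadjusted p under 0.05, beside 2.2% of all probes: both were of the collagen gene COL3A1 (log2 differences of -0.27 and -0.28). The other COL3A1 probe had a log2 difference of -0.11 and was not called. Of 8 leukocyte probes, 1 had a higher and 7 a lower mean, and 1 of CD14 was lower at that threshold (-0.16). None of these probes passed after adjustment (lowest adjusted limma p of 0.999). The summed level of the fibroblast list was 17.38 to 18.16 in Control and 17.83 to 18.27 in CORT lambs on the log2 scale, and that of the leukocyte list 10.02 to 11.77 and 10.37 to 10.97. Their part in the results was not tested.

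In the IVS the question was whether the same genes differed in a tissue that did not choose them. The study also grouped RCHY1, TCEB1 and ANAPC11 under ubiquitin mediated proteolysis among its genes higher in the IVS. TCEB1 and ANAPC11 are not among the 6 genes, so that grouping was not tested here. The methods describe both tissues as dissected from the same hearts, so the IVS lambs are not a separate set of animals. The study lists RCHY1 for the IVS as well, so IVS values may have taken part in tracing its probe. Its IVS difference is therefore also given as a description. Of the other 5 genes, 0 differed at an unadjusted p under 0.05 in limma's test, with 3.59% of all 11685 probes below that threshold (1.39% higher and 2.19% lower) and 0 at an adjusted p under 0.05. The 6 log2 differences, RCHY1 included, had a median of 0.068, beside -0.0082 over all probes tested. The middle value of the 5 tested genes was that of KLHL9, 0.052. No shift of the genes as a group is read from these values.

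RCHY1 in the IVS ranged from 9.60 to 10.02 (median 9.83) in Control lambs and from 9.69 to 10.34 (median 10.02) in CORT lambs. Of the CORT lambs, 7 lay above the Control mean and 4 above the highest Control lamb. The means were 9.82 ± 0.13 (SD, n = 8) and 10.05 ± 0.20 (SD, n = 8), a log2 difference of 0.23 (SE 0.091), beside 0.22 in the LV. It was 0.38, 0.30 and 0.10 on slides 3, 4 and 5, and 0.22 without the 3 brightest Control arrays.

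TCEB2 in the IVS ranged from 10.84 to 11.78 (median 11.65) in Control lambs and from 11.43 to 11.93 (median 11.67) in CORT lambs. The normalized levels of the Control lambs fell into a low set and a high set. The low set was the 3 brightest arrays, at 10.84 to 11.04 against 11.63 to 11.78 on the other 5. The raw spot intensity of TCEB2 was 2607 to 3649 on those 3 arrays and 2140 to 3004 on the other 5, so raw values did not show the low set. The log2 difference was 0.27 (SE 0.14, 95% confidence interval -0.029 to 0.57, limma p = 0.0740, adjusted p = 0.993; two-sided exact permutation p = 0.105 over 12870 assignments). Without those 3 arrays, a choice made after seeing the data, the mean of the other 5 Control lambs was 11.69 beside 11.68 in CORT lambs, a difference of -0.0045. The difference was 0.61 on slide 3 and 0.42 on slide 4, which hold the 3 arrays, and -0.040 on slide 5. Permuting within slides only, the exact p was 0.0676 over 2100 assignments. The unadjusted limma p fell under 0.05 with slide as a block, at a log2 difference of 0.27, with median spot intensity as a covariate, at 0.21, with cyclic loess, at 0.29, and without Control replicate 5 or 8, at 0.31 and 0.33. Array weights gave 0.17 (limma p of 0.142). Leaving out 1 array at a time gave 0.19 to 0.33 (limma p of 0.0370 to 0.164).

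The other 4 genes had IVS differences within their errors. ANAPC13 had a log2 difference of 0.084 (SE 0.10, 95% confidence interval -0.13 to 0.30, limma p = 0.423, exact permutation p = 0.418), with 0 CORT lambs above the highest Control lamb. KLHL9 had one of 0.052 (SE 0.098, interval -0.15 to 0.26, limma p = 0.601, exact permutation p = 0.586), and -0.067 without the 3 brightest Control arrays. BIRC6 had one of -0.053 (SE 0.066, interval -0.19 to 0.086, limma p = 0.435, exact permutation p = 0.322). UBA2 had one of -0.017 (SE 0.077, interval -0.18 to 0.15, limma p = 0.828, exact permutation p = 0.800). Leaving out 1 array at a time gave 0.040 to 0.15 for ANAPC13, 0.0087 to 0.10 for KLHL9, -0.073 to -0.022 for BIRC6 and -0.050 to 0.016 for UBA2, and array weights gave 0.16 for ANAPC13 (limma p of 0.0781). All 4 intervals include 0. Those of ANAPC13, KLHL9 and UBA2 also include the differences measured in the LV (0.25, 0.17 and 0.14), and that of BIRC6 does not (0.11). The LV differences chose the genes, so neither agreement nor disagreement is read from this. The difference between the tissues was not tested, because the LV contrast chose the genes.

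**Figure D2:**
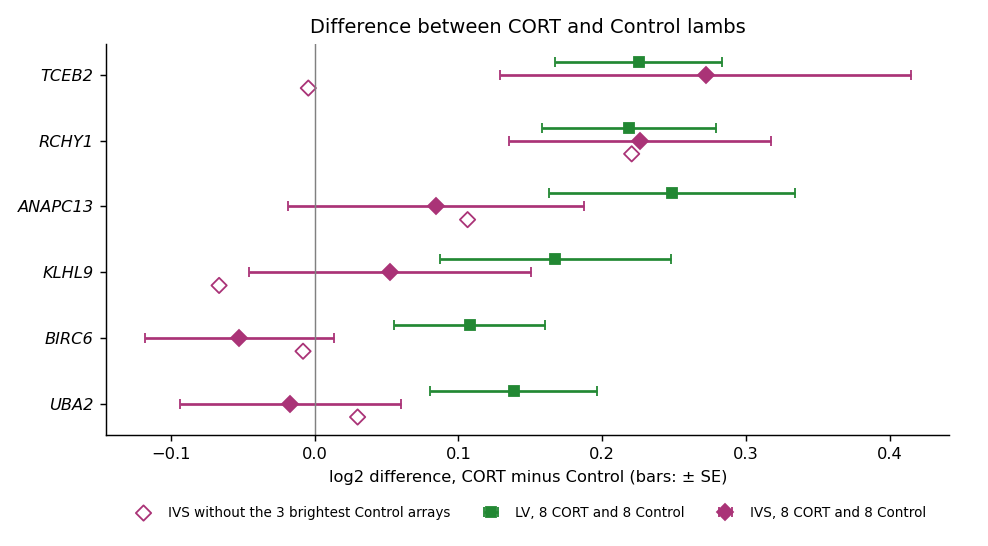
Log2 difference in normalized intensity between CORT and Control lambs (horizontal axis) for each gene in the LV and the IVS, with the SE of limma's fit as bars, and in the IVS without the 3 brightest Control arrays (open symbols, no error drawn). TCEB2 moves from 0.27 to -0.0045 when those arrays are left out, and RCHY1 from 0.23 to 0.22.

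Levels were then compared between the tissues on 32 arrays normalized together, as the mean of both IVS groups against the mean of both LV groups. The methods describe both tissues as dissected from the hearts of 8 lambs per group, so the tissues share lambs, but the labels do not say that a replicate number marks a lamb, and the fit has no term for the lamb. No gene of the 6 passed an adjusted p of 0.05, which 17 of 11520 probes did (0.148%; 0.104% higher and 0.0434% lower in the IVS). TCEB2 was 11.58 to 12.07 (median 11.81) in the LV and 10.77 to 11.87 (median 11.59) in the IVS. Its log2 difference, IVS minus LV, was -0.36 (SE 0.13, limma adjusted p = 0.263), and its mean on slide 3, which holds 2 of the 3 brightest Control arrays, was 11.18, beside 11.54 and 11.61 on the other IVS slides and 11.78 and 11.86 on the LV slides. BIRC6 was 8.26 to 8.66 (median 8.48) in the LV and 8.42 to 8.81 (median 8.66) in the IVS, a log2 difference of 0.16 (SE 0.066, limma adjusted p = 0.327). For UBA2 the difference was 0.13 (SE 0.083), for RCHY1 0.054 (SE 0.090), for KLHL9 -0.022 (SE 0.10) and for ANAPC13 -0.081 (SE 0.12). Slides held 1 tissue each, and slide entered the fit as a random block with a consensus correlation of 0.269. Without that block the adjusted p was 0.00576 for TCEB2 and 0.00576 for BIRC6, and 1374 probes passed in place of 17. With the replicate number as a block and no slide block, the adjusted limma p was 0.00509 for TCEB2 and 0.0202 for BIRC6, with 1377 probes passing. With both blocks, a fit added after seeing the data, it was 0.245 and 0.395, and 6 probes passed.

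Covariation between the 6 genes was measured on deviations from the group means, which leaves the CORT difference out. In the LV the 15 pairs had Pearson r between -0.27 and 0.37 (median -0.015), and 0 pairs reached a permutation p under 0.05 (lowest p = 0.179, adjusted p = 0.777 over the 30 pairs of both tissues). At this number of arrays no covariation between the genes was resolved within the LV groups.

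In the IVS the pairs ranged from -0.42 (RCHY1 and BIRC6) to 0.61, with a median of 0.084. Of these pairs, 3 had a permutation p under 0.05 and 0 an adjusted p under 0.05 (lowest adjusted p = 0.349). TCEB2 and KLHL9, both adaptors of cullin-RING ligases, had r = 0.61 over 16 arrays (permutation p = 0.0214, Spearman's rho 0.64, permutation p = 0.0169), and 0.57 without the 2 arrays farthest from the median of TCEB2. Without the 3 brightest Control arrays r was 0.23, and with median spot intensity removed -0.12. ANAPC13 and UBA2 had r = 0.61 (permutation p = 0.0247, rho 0.53, permutation p = 0.0508), 0.52 without the 2 farthest arrays, 0.58 without the 3 brightest Control arrays and 0.66 with median spot intensity removed. On slide 5 alone, the 1 IVS slide with at least 6 arrays, this pair had r = 0.89. ANAPC13 and BIRC6 had r = 0.54 (permutation p = 0.0349, rho 0.44, permutation p = 0.10), 0.45 without the 2 farthest arrays and 0.65 on slide 5, but -0.15 with the processed signal scaled to its 75th percentile. In the LV the last 2 pairs had r of -0.015 and -0.27. For scale, 5% of all tested probes had an r above 0.75 with TCEB2 in the IVS, and above 0.71 with KLHL9. That limit was 0.48 for ANAPC13, 0.49 for UBA2 and 0.54 for BIRC6. The r of ANAPC13 and BIRC6 did not exceed the limit of BIRC6.

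**Figure D3:**
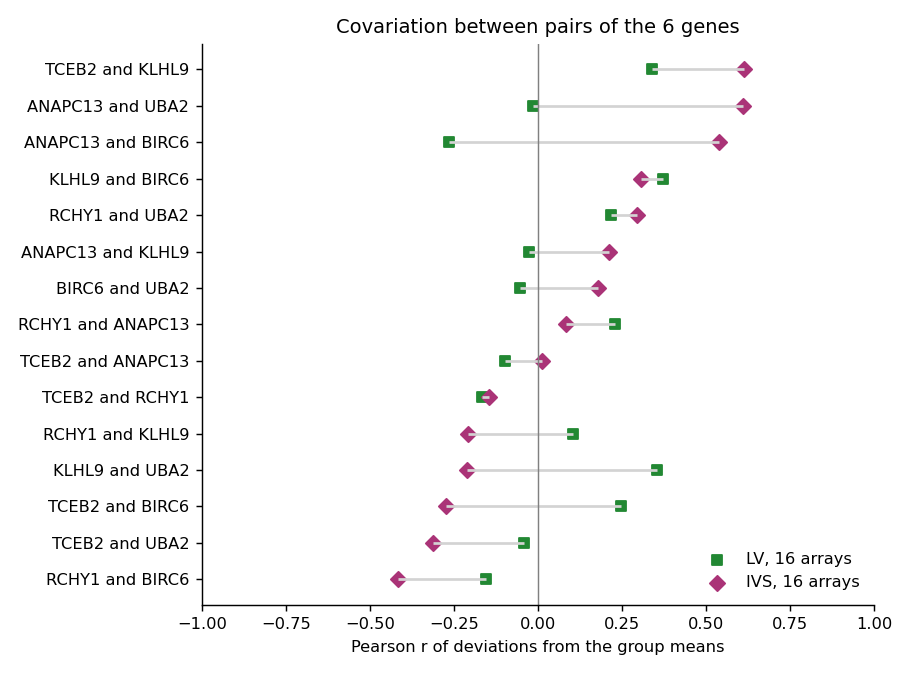
Pearson r of deviations from the group means (horizontal axis) for the 15 pairs of genes over 16 arrays in the LV (squares) and 16 in the IVS (diamonds), ordered by the IVS value. The LV pairs lie between -0.27 and 0.37, and 3 IVS pairs lie above 0.5 (0.61, 0.61 and 0.54), none of them past an adjusted p of 0.05.

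KLHL9 and TCEB2 moved with the brightness of the array. The share of all probes that did so was not counted, so no trait particular to these genes is read from it. The deviations of KLHL9 had r = -0.83 with log2 median spot intensity in the LV (rho -0.84, permutation p = 0.00022 for both, adjusted p = 0.00132 over 12 relations) and -0.80 in the IVS (permutation p = 0.0001, adjusted p = 0.0012; rho -0.87, permutation p = 5e-05). Without the 2 arrays farthest from the median brightness r was -0.81 and -0.76. It was -0.89 and -0.76 on the LV slides, -0.41 on slide 5 and -0.65 over the 13 IVS arrays without the brightest Control arrays. TCEB2 had r = -0.82 in the IVS (permutation p = 0.00284, adjusted p = 0.0114; rho -0.86, permutation p = 0.00203), -0.46 on slide 5 and -0.39 over those 13 arrays. In the LV it had r = -0.18 (permutation p = 0.536). The other 4 genes had r between -0.19 and 0.22 in both tissues, none with a permutation p under 0.05. Over the 13 IVS arrays r was -0.65 for ANAPC13, -0.71 for BIRC6 and -0.40 for UBA2, and on slide 5 it was -0.56, -0.97 and -0.80. The part of brightness in the slide 5 values of their pairs was not tested. Other normalizations left r between -0.80 and -0.90 for KLHL9 and between -0.81 and -0.87 for TCEB2 in the IVS. The LV difference of KLHL9 was 0.17 in limma and 0.16 with median spot intensity as a covariate.

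**Figure D4:**
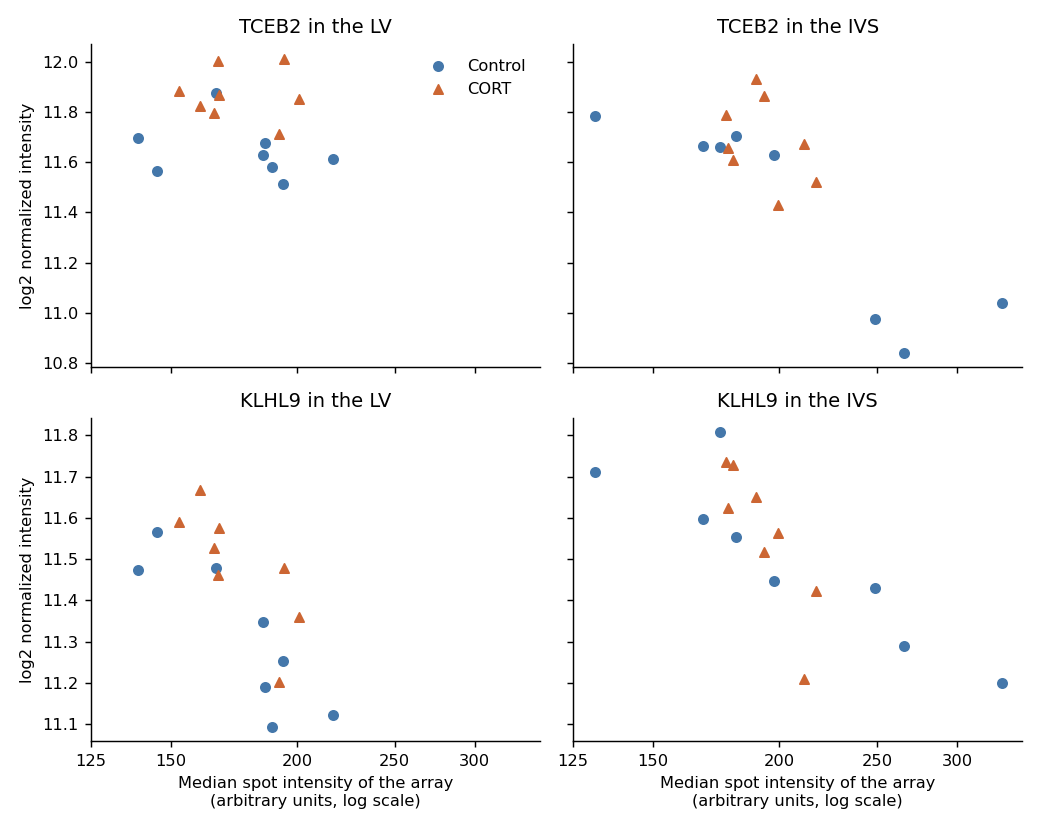
Levels of TCEB2 and KLHL9 (log2 normalized intensity, vertical axes, which do not start at 0) against the median spot intensity of each array (arbitrary units, log axis) in the LV and the IVS, for Control (circles) and CORT lambs (triangles). KLHL9 falls with brightness in both tissues, and the 3 IVS Control arrays at 249 to 332 hold the lowest TCEB2 levels.

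The named probes whose deviations over all 32 arrays were most like each gene are given as a description, among 915 probes with 1 gene name of 11315 tested in both tissues. For TCEB2 they were BCL2 (r = 0.86), BAD (0.80) and LGALS1 (0.77), whose r was 0.94, 0.86 and 0.92 in the IVS and 0.37, 0.31 and 0.16 in the LV. BCL2 and BAD encode opposing regulators of apoptosis. For KLHL9 they were PRKACA (0.80), a catalytic subunit of protein kinase A, RPL10 (0.77) and SLC17A5 (0.77), with an r of at least 0.57 in each tissue. For RCHY1 they were ATP5PO (0.69), a subunit of mitochondrial ATP synthase, SLC25A6 (0.64), a mitochondrial ADP/ATP carrier, and MYOD1 (0.64).

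For ANAPC13 they included CAPN2 (0.58), which encodes a calpain protease, and TFAP2A (0.57). For BIRC6 they were FABP5 (0.63), AGTR1 (0.59), the angiotensin II receptor, and ITGB1 (0.50). For UBA2 they were ANGPT1 (0.57), LEP (0.52) and ALDH1A1 (0.52). The arrays share brightness, and 5% of all probes had an r above 0.60 with TCEB2 and above 0.52 with KLHL9. That limit was 0.50 for RCHY1, 0.41 for BIRC6, 0.37 for UBA2 and 0.36 for ANAPC13.

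Other genes of the ubiquitin system were read from lists, of which 14 genes with 22 tested probes in each tissue are reported. In the LV 2 probes were higher in CORT lambs at an unadjusted p under 0.05 and 0 lower, beside 3.85% of all probes, and the median log2 difference was -0.014. Both called probes were of UBA1, the main ubiquitin E1: they went from 8.50 ± 0.20 (SD, n = 8) to 8.73 ± 0.19 and from 8.89 ± 0.18 to 9.15 ± 0.23. Their log2 differences were 0.23 (SE 0.094) and 0.26 (SE 0.099), each with an adjusted limma p of 0.999. In the IVS they were 0.12 (SE 0.072) and 0.10 (SE 0.076), not called.

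In the IVS 0 of the 22 probes passed an unadjusted limma p under 0.05, beside 3.59% of all probes. With cyclic loess or with slide as a block 1 did, where 383 and 879 of all probes were called in place of 419. The median log2 difference of the 22 probes was -0.0062. The proteasome genes PSMA6, PSMB7, PSMB8, PSMD4 and PSME2, with 8 probes, had log2 differences between -0.086 and 0.22 in the LV and between -0.060 and 0.25 in the IVS, with 0 called. FBXO32, the muscle ligase atrogin-1, had a log2 difference of 0.15 in the LV (SE 0.16) and -0.0037 in the IVS (SE 0.27). No other subunit of the anaphase-promoting complex and no deubiquitinase of the lists was named in the files.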

How the data were processed

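RNA of the LV and IVS was hybridised to 32 1-colour Agilent arrays, 8 per group. The authors deposited spot intensities as written by Feature Extraction 10.1.1.1, and a log2 matrix per tissue that the authors had background corrected, quantile normalized and filtered for brightness with limma (version not given in the sources used here). The scanner intensities were used here: normexp (offset 50), quantile normalization over the 16 arrays of a tissue (over 32 for the tissue comparison), and log2. Outlier and control spots were left out. A probe was tested when over 10% brighter than the 95th percentile of negative controls on at least 8 of 16 arrays (16 of 32). Groups were taken from the labels. CORT and Control were compared with limma 3.58.1 in R 4.3.3 (statmod 1.5.0), with no covariate, counted at an unadjusted p of 0.05 as in the study's methods and after Benjamini-Hochberg adjustment, and by two-sided exact permutation. The tissue fit held slide as a random block. Correlations (Python 3.11.15, scipy 1.17.1) used 100000 permutations within groups. Depth is given as signal over background, and the number of arrays limits the precision. The fits were tested on simulated data.

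The members and lists were chosen with earlier results of these data known. Probe annotation in the files, with RefSeq names of 35057 sheep genes (ARS-UI_Ramb_v3.0, names only), gave 1 symbol to 1345 probes, 837 symbols in all. Besides the members, named genes are list genes with an unadjusted p under 0.05 in either tissue, the 3 named probes most correlated with each member, and markers whose level is stated; other list genes named were chosen after their values were seen. Some list genes are not reported here. The tests of RCHY1 in the IVS, planned with the others, were not used, because the study lists it there too. Labels and methods differ on the dye and the RNA input; the lambs' sex was not used. Alternatives covered background correction, normalization, the brightness limit, blocks, array weights, the prior and single arrays.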

Additional observations from a re-analysis of the deposited data

Results flagged for a closer look

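In 1 of the 24 groups of 8 arrays (6 genes, 4 groups), 1 array stood far from the others. UBA2 in the IVS of CORT replicate 2 was at 11.98 on the log2 scale, with the next array at 11.78 and the lowest at 11.67, a gap of 0.639 of the range. Chance gives about 1 such array in 20 groups.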

How the results depend on the processing

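In the LV, the median difference of the 6 genes was 0.19 to 0.21 under 14 alternatives, and each gene kept its direction under all 14. The same arrays chose the genes, so the kept directions there are no support for the differences. In the IVS, the number of the 5 tested genes with an unadjusted limma p under 0.05 was 0, and 1 (TCEB2) with cyclic loess, with slide as a block and with median spot intensity as a covariate (the last added after seeing the data); leaving out 1 array at a time gave 0 to 1, with 1 without Control replicate 5 and without Control replicate 8. RCHY1 was between 0.16 and 0.28 under its 31 alternatives. Without the 3 brightest Control arrays, also added later, the sign turned for TCEB2 (-0.0045), KLHL9 (-0.067) and UBA2 (0.030). It turned for BIRC6 with array weights (0.013), and for UBA2 with cyclic loess (0.0037), array weights (0.020), the processed signal scaled to its 75th percentile (0.0068) and without Control replicate 2, 3 or 8 (-0.050 to 0.016 over single arrays left out). The causes were not tested.

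Of the 22 list probes, 0 were called in the IVS, beside 3.59% of all probes, and 1 with cyclic loess and with slide as a block. Between the tissues, 0 genes passed, and 2 (TCEB2 and BIRC6) without the slide block; the sign turned for RCHY1 with array weights (-0.0038) and for KLHL9 with cyclic loess (0.0041) and array weights (0.080). Over all probes, 444 were called in the LV and 744 with array weights. In the IVS 419 were called, 879 with slide as a block, 241 without the 3 brightest Control arrays, and 228 to 852 with 1 array left out. The 17 probes that differed between tissues became 3 with the processed signal, 3 with cyclic loess, 63 with no brightness limit, 106 with array weights and 1374 without the slide block.

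Replicate numbers are shared across groups, but same-numbered arrays did not all deviate together: r was 0.0035 to 0.29 between Control and CORT in the LV (3 of 8 over 0.1), -0.15 to 0.42 in the IVS (6 of 8) and -0.21 to 0.64 between the tissues (7 of 16). Between the tissues 6 of 16 arrays correlated best with their own number, where 2 would if numbers were unrelated. Replicate numbers also follow the order of the slides in both tissues. Whether a number marks a lamb was not tested. The labels do not say so, and no pairing was assumed. With the replicate number as a block, 0 of the 5 genes were called in the IVS (TCEB2 0.27), 1 list probe there, and over all probes 639. Between tissues the replicate block took the place of the slide block, and 2 genes (TCEB2 and BIRC6) and 1377 probes passed, much as without the slide block alone; with both blocks 0 genes and 6 probes passed. The median r of the 15 pairs stayed between -0.048 and 0.17 in the LV and between -0.035 and 0.24 in the IVS.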
